A study of Mus musculus with 14 samples.

Results

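The circadian clock genes described here were 10 genes chosen by symbol from the gene count table: the activators Arntl, Clock and Npas2, the repressors Per1, Per2, Per3 and Cry1, the nuclear receptors Nr1d1 and Nr1d2, and the output factor Dbp. All 10 were found among the 55487 genes of the table, and all 10 were among the 16915 genes tested, which were those above 1 CPM (counts scaled to a common library size) in at least 3 libraries. Bulk RNA-seq was performed on tail intervertebral discs (IVDs) of male mice, with the discs of 1 mouse pooled into 1 library. The db/db mice (n = 3) were homozygous for the db point mutation of the leptin receptor, and their db/+ littermates (n = 3) were heterozygous for the same mutation, so both groups carried it. These mice were 3 months old. The STZ-HFD mice (n = 4) were C57BL/6 mice given a high-fat diet for a lead-in of 4 to 6 weeks, a single 100 mg/kg injection of streptozotocin (STZ), a toxin of the insulin-producing beta cell, and the same diet for another 12 weeks. The Con+Veh mice (n = 4) were C57BL/6 mice fed chow and injected with the buffer alone. The labels and the study's methods give different fat contents for the diet. Mice of the STZ-HFD cohort entered at 12 weeks of age, so the cohorts differed in age and were compared only through their own controls. All mice were kept under a 12-h light/dark cycle, and the hour at which the discs were taken is not given in the sources used here.

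The mammalian clock is a feedback loop of transcription that runs in nearly every cell and follows the light, feeding and activity of the animal. The proteins of Arntl (also called BMAL1) and Clock, or its relative Npas2, bind as pairs to E-box elements and switch on the Per and Cry genes, whose proteins return to block that pair. A second loop runs through Nr1d1 and Nr1d2, which encode the REV-ERB receptors and repress Arntl, Clock and Npas2. Dbp, a direct E-box target, carries the rhythm on to genes with D-box elements, among them Per3. In a working clock the transcripts of Arntl and Npas2 peak at the opposite time of day to those of Dbp, Nr1d1 and the Per genes. The disc is known to hold such a clock, which is set by temperature and by loading.

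The elements named above can be seen in the promoters of some of these genes. The RefSeq windows (assembly GRCm38.p6) run from upstream of a start site to shortly downstream of it, and 13 of them belonged to 9 of the 10 genes. The windows of 4 genes are shown because they hold the elements of both loops, or, for Npas2, because that gene carried the only call in the STZ-HFD model. Capitals mark CACGTG (E-box) and CACGTT on either strand in Cry1, TTATGTAA (D-box) in Per3 and AGGTCA, the core of the REV-ERB element, in Arntl, and no searched element was found in the Npas2 window. Each is given 5′ to 3′ on the strand of its gene.
Arntl, chr7:113207261-113207560, plus strand: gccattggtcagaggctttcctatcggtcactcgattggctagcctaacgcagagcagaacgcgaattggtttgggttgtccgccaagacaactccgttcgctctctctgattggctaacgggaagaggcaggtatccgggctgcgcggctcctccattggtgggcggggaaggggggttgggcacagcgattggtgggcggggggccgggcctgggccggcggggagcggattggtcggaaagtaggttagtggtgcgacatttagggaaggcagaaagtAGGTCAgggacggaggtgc
Npas2, chr1:39194022-39194321, plus strand: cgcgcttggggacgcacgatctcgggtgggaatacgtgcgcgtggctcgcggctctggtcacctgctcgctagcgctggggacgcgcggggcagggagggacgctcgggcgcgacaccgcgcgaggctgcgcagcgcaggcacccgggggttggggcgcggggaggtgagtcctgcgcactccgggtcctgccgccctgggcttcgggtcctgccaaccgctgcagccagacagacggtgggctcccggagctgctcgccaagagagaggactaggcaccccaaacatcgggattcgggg
Cry1, chr10:85185005-85185304, minus strand: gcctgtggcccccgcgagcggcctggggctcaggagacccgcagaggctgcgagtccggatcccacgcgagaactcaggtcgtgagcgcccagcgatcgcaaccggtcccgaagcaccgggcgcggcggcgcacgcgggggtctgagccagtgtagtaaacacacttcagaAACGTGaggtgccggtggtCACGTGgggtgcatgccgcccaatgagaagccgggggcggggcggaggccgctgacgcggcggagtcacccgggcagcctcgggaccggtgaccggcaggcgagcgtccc
Per3, chr4:151044616-151044915, minus strand: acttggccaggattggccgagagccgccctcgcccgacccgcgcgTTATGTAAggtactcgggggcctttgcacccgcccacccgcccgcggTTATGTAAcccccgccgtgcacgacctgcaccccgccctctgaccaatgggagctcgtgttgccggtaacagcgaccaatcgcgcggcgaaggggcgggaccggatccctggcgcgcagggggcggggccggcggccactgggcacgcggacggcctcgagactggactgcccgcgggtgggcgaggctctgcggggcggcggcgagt

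Counting both strands, CACGTG was in the windows of 2 of the 9 genes (Cry1 and Per1) and in those of 8.09% of all 27025 genes. CACGTT was also in those of 2 genes (Cry1 and Nr1d1) and of 5.44% of all genes. Per3 was the single member with a D-box, spelled TTATGTAA or TTACGTAA, which the windows of 1.23% of all genes held. Its 2 copies began at positions -205 and -158 from the start site. The letters AGGTCA were in windows of 4 genes (Arntl, Clock, Per1 and Nr1d2) and of 18.1% of all genes, and in Arntl they began at position 32 from the start site. The cAMP element TGACGTCA was in no member window and in those of 2.03% of all genes. A match is a description of the letters and was not tested as a site of binding.

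Total counts ranged from 16076908 to 58943169 per library, of which 8945906 to 35031712 lay outside ribosomal RNA genes. STZ-HFD replicate 1 had the lowest total and stood apart, with a TMM scaling factor of 1.58 against 0.69 to 0.82 in the other 7 libraries of its cohort. The fit gave the libraries weights from 0.275 (Con+Veh replicate 1) to 3.05 (Con+Veh replicate 3). All 14 libraries bore the same batch label, so no batch could be separated. The labelled tissue was checked with its markers. The summed level of 7 disc and cartilage genes was 13149 to 23286 CPM in db/+ and 5095 to 13589 CPM in db/db. It was 1378 to 3184 CPM in Con+Veh and 610 to 1296 CPM in STZ-HFD, where every library was below every Con+Veh library, and the part of this difference in the results on Clock and Npas2 was not tested. Of 6 notochord and nucleus pulposus genes, Shh and Noto were at 0 counts in 8 and 11 of the 14 libraries. The others, T, Krt8, Krt18 and Krt19, were counted in every library, with lowest counts of 478, 136, 19 and 258. The summed level of the 6 was 26.3 to 442 CPM in db/+ and 34.7 to 69.9 CPM in db/db. It was 49.9 to 462 CPM in Con+Veh and 133 to 335 CPM in STZ-HFD. The summed level of 10 skeletal muscle genes was 4680 to 9182 CPM in db/+ and 3032 to 4988 CPM in db/db, and 7821 to 10937 CPM in Con+Veh and 7239 to 23135 CPM in STZ-HFD. Bone and endothelium were the marker lists that separated db/db from db/+. The 5 bone genes summed to 539 to 784 CPM in db/db and 870 to 1486 CPM in db/+. The 5 endothelium genes summed to 207 to 243 CPM in db/db and 137 to 197 CPM in db/+. The part of these differences in the db/db values of the clock genes was not tested. In whole discs, fewer cells of a type and less RNA per cell cannot be told apart.

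Levels per length of exon placed Nr1d1 first, at 111 ± 35.1 CPM per kb (SD, n = 14 libraries), above Per1 (20.0 ± 5.79 CPM per kb) in 14 of 14 libraries. Per1 was above Per3 in 14 of 14. Per3 (9.58 ± 2.72 CPM per kb), Per2 (9.58 ± 2.49 CPM per kb) and Nr1d2 (8.81 ± 2.25 CPM per kb) were not separated, since Per3 exceeded Per2 in 9 libraries and Per2 exceeded Nr1d2 in 8. Clock followed at 4.86 ± 1.32 CPM per kb and was below Nr1d2 in every library. Dbp lay at 2.98 ± 1.42, Npas2 at 1.75 ± 1.09, Cry1 at 1.64 ± 0.521 and Arntl at 1.30 ± 0.366 CPM per kb, and the last 3 overlapped each other. Per length of exon, Arntl was therefore the lowest of the 10 in mean level and Nr1d1 the highest. That length covers all annotated exons of a gene, 7523 bases for Arntl, whose most abundant transcript by the estimates has 2908 bases. The place of Arntl depends on this length. In CPM without it, the mean of Arntl was above that of Cry1 in each of the 4 groups.

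**Figure D1:**
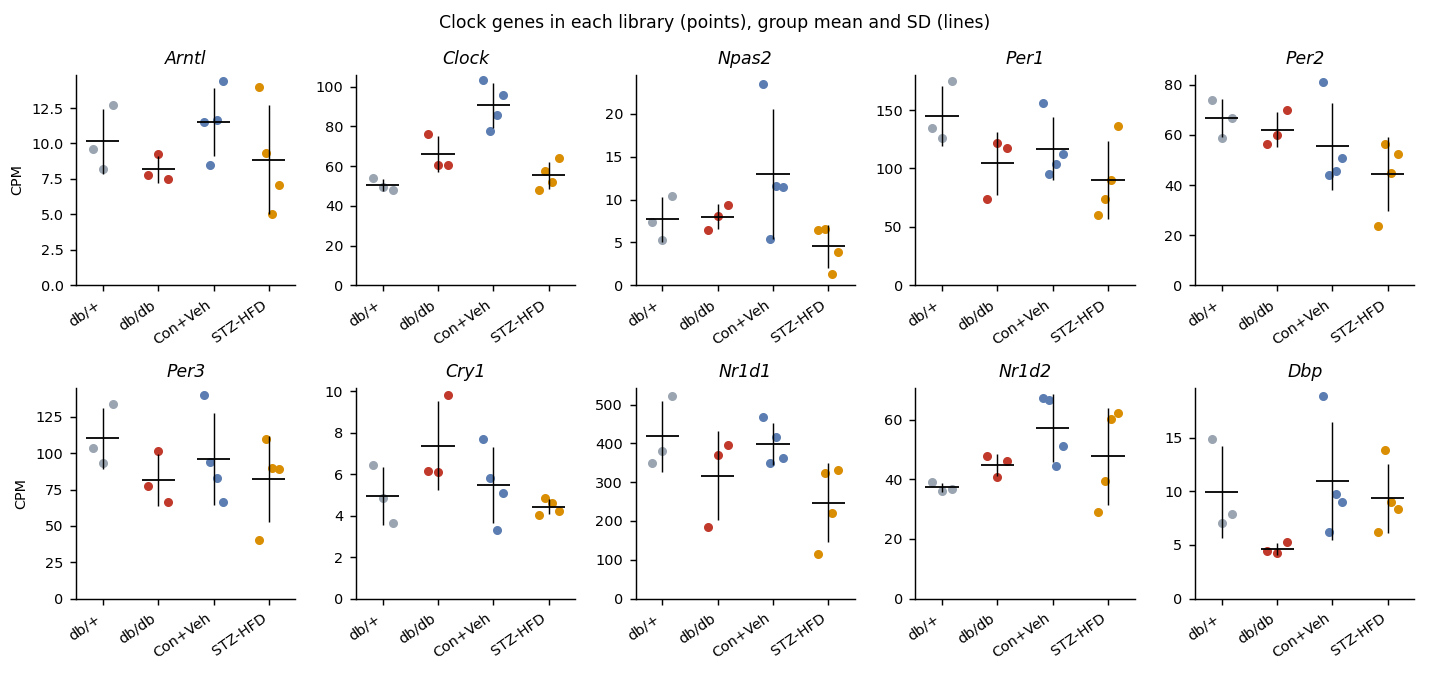
CPM of each clock gene (vertical axes, linear from 0, 1 panel a gene) in each library (points) of the 4 groups, with the group mean (horizontal line) and SD (vertical line). Clock stood at 47.8 to 63.9 CPM in STZ-HFD, below all Con+Veh libraries, and Dbp at 4.22 to 5.23 CPM in db/db, below all db/+ libraries.

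Npas2 and Clock, whose proteins are alternative partners of BMAL1, were lower in STZ-HFD discs than in Con+Veh discs. Npas2 was called and Clock passed the adjusted p but not the fold minimum, while Arntl, at a log2 fold change of -0.80, passed neither. A gene was called where limma gave it a Benjamini-Hochberg adjusted p under 0.05 together with a log2 fold change of 1 or more in size. The count of 1 among the 10 clock genes, in the lower direction, compares with 2.61% of all tested genes called in this model and 1.31% called lower. Without adjustment 4 of 10 had a p under 0.05, all of them lower, against 17.9% of all genes in either direction and 9.54% lower. By the adjusted p alone 2 of 10 passed, against 3.45% of all genes. The median log2 fold change of the 10 was -0.10, and that of all tested genes -0.04.

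Clock encodes the DNA-binding partner of BMAL1 and lies on the minus strand of chromosome 5 (76209868 to 76304792, GRCm38). Its level was 103, 77.5, 86.0 and 95.6 CPM in Con+Veh replicates 1 to 4 and 47.8, 57.6, 52.2 and 63.9 CPM in STZ-HFD replicates 1 to 4. Every STZ-HFD library was below every Con+Veh library, with means of 55.4 ± 6.97 and 90.6 ± 11.2 CPM (SD, n = 4 each). The log2 fold change was -0.65 (SE 0.16, adjusted p = 0.0318 by limma). Leaving out Con+Veh replicate 3 (adjusted p = 0.311), Con+Veh replicate 4 (0.209), STZ-HFD replicate 3 (0.279) or STZ-HFD replicate 4 (0.0681) ended that pass, and the log2 fold change stayed between -0.74 and -0.60 over all libraries left out in turn. DESeq2 gave -0.70 (adjusted p = 0.0214), whereas edgeR's quasi-likelihood test gave -0.71 (adjusted p = 0.183). Without quality weights limma also gave -0.71 (adjusted p = 0.183).

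Npas2, the relative that can stand in for Clock, lies on the plus strand of chromosome 1 (39193731 to 39363236). It was at 23.5, 5.40, 11.6 and 11.4 CPM in Con+Veh replicates 1 to 4 and at 6.50, 6.53, 1.27 and 3.92 CPM in STZ-HFD replicates 1 to 4. The groups overlapped, because Con+Veh replicate 2 was below STZ-HFD replicates 1 and 2. Means were 13.0 ± 7.57 and 4.56 ± 2.51 CPM (SD, n = 4 each), and the weighted log2 fold change was -1.93 (SE 0.44, adjusted p = 0.0255 by limma). Without quality weights it was -1.60 (adjusted p = 0.282), and edgeR (-1.51, adjusted p = 0.210) and DESeq2 (-1.50, adjusted p = 0.0620) did not call it. Leaving out STZ-HFD replicate 3, the lowest library, gave -1.17 (adjusted p = 0.332), and the call also ended without Con+Veh replicate 3, Con+Veh replicate 4 or STZ-HFD replicate 4 (adjusted p = 0.267, 0.138 and 0.0947).

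Arntl encodes BMAL1, the partner that the loop cannot do without, and lies on the plus strand of chromosome 7 (113207465 to 113314126). It was at 11.5, 8.48, 11.7 and 14.4 CPM in Con+Veh replicates 1 to 4 and at 14.02, 9.32, 5.03 and 7.05 CPM in STZ-HFD replicates 1 to 4. The groups overlapped, with STZ-HFD replicate 1 near the top of both. The log2 fold change was -0.80 (SE 0.26, unadjusted p = 0.00643, adjusted p = 0.0977 by limma), and -0.38 by edgeR (adjusted p = 0.624). Without STZ-HFD replicate 1 it was -0.93 (adjusted p = 0.0544), and without STZ-HFD replicate 3 it was -0.49 (adjusted p = 0.643).

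Transcript estimates were compared with gene counts for the activators. The table of transcripts held every annotated transcript of 6 clock genes. Over the 14 libraries the estimated counts of Arntl came to a median of 22.7% of its gene count, but to 3.52% in STZ-HFD replicate 1, where 12 estimated counts stood against 341 in the gene table. For Npas2 the median was 29.0%, and STZ-HFD replicates 1 and 3 were at 7.59% (12 of 158) and 4.88% (2 of 41). Clock, Nr1d1 and Nr1d2 stayed between 26.1% and 36.8% in every library. From transcript totals the log2 fold change in the STZ-HFD model was -0.78 for Arntl (adjusted p = 0.382), -2.53 for Npas2 (adjusted p = 0.126) and -0.60 for Clock (adjusted p = 0.149).

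Skeletal muscle also runs a clock. Its summed markers overlapped between the groups of each model, as given above, with medians of 20681 CPM in STZ-HFD and 9752 CPM in Con+Veh. With the mean log2 level of the muscle markers as a covariate, the STZ-HFD log2 fold change was -1.05 for Npas2 (adjusted p = 0.313), -0.19 for Arntl (adjusted p = 0.809) and -0.87 for Clock (adjusted p = 0.0760), and -0.29 for Nr1d1 (adjusted p = 0.767). The 6 adipocyte markers summed to 337 to 821 CPM in Con+Veh and 790 to 922 CPM in STZ-HFD. With an adipocyte covariate Npas2 was at -1.95 (adjusted p = 0.197) and Clock at -0.69 (adjusted p = 0.265).

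None of the repressors passed the test in this model. Per1, Per2 and Per3 encode the PERIOD proteins and Cry1 a CRYPTOCHROME that together block the BMAL1 pair, and all 4 overlapped between the groups. Their log2 fold changes were -0.14 (Per1, SE 0.22), -0.06 (Per2, SE 0.20), 0.11 (Per3, SE 0.22) and 0.06 (Cry1, SE 0.32), with adjusted p from 0.788 to 0.945. The 95% intervals ran from -0.61 to 0.32 for Per1, -0.47 to 0.35 for Per2, -0.36 to 0.58 for Per3 and -0.61 to 0.74 for Cry1. The values depended on the quality weights. Without weights they were -0.43 (Per1), -0.35 (Per2), -0.25 (Per3) and -0.31 (Cry1), with adjusted p from 0.603 to 0.816. STZ-HFD replicate 1 held the lowest level of Per1 (59.7 CPM), Per2 (23.5 CPM) and Per3 (40.4 CPM) of the 14 libraries.

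Nr1d1, which encodes REV-ERB alpha, was at 468, 348, 417 and 364 CPM in Con+Veh replicates 1 to 4 and at 115, 323, 220 and 331 CPM in STZ-HFD replicates 1 to 4. All STZ-HFD libraries were below all Con+Veh libraries. The log2 fold change was -0.62 (SE 0.26, unadjusted p = 0.0267, adjusted p = 0.204 by limma), which did not pass. Nr1d1 and Clock were thus the 2 of 10 clock genes whose CPM did not overlap between the groups, against 4.74% of all tested genes without overlap and 2.77% without overlap and lower. Without STZ-HFD replicate 1, which was its lowest library, the value was -0.54 (adjusted p = 0.219). Nr1d1 shares 263 bases of its exons, 8.55% of them, with Thra on the opposite strand, and the strand setting of the counting is not given, so reads there cannot be assigned. Thra itself differed by -0.32 (adjusted p = 0.575). Nr1d2, which encodes REV-ERB beta, differed by 0.12 (SE 0.20, adjusted p = 0.808), and Dbp by -0.05 (SE 0.29, adjusted p = 0.948).

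**Figure D2:**
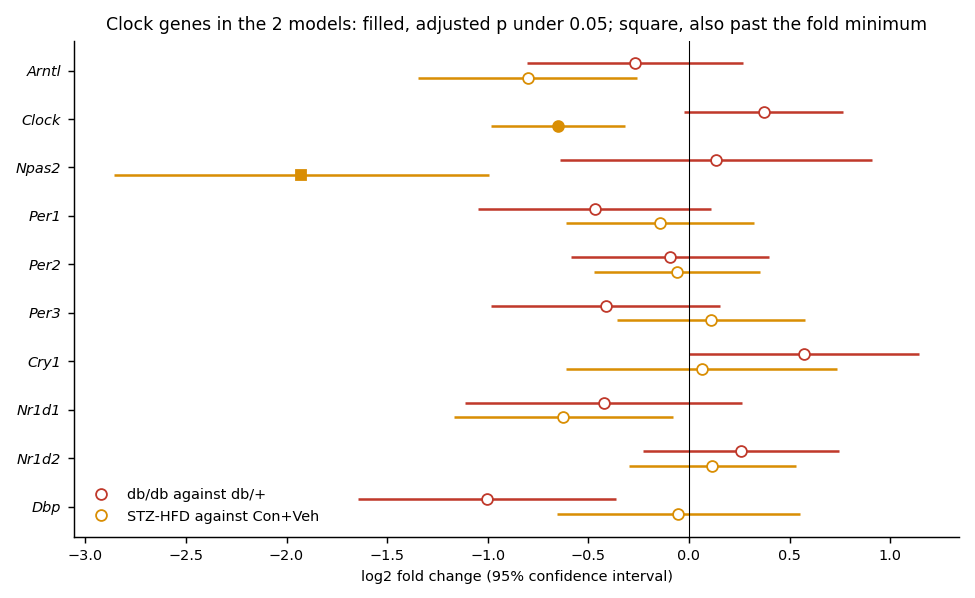
Log2 fold change (horizontal axis) of the 10 clock genes in each model, with 95% confidence intervals (lines). Filled symbols passed the adjusted p of 0.05, and the square also passed the fold minimum: Npas2 at -1.93 and Clock at -0.65, both in STZ-HFD.

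In db/db discs against db/+ discs none of the 10 clock genes was called, where 1.66% of all tested genes were. One of the 10 had an unadjusted p under 0.05, against 21.1% of all genes (10.4% lower), and edgeR and DESeq2 also called none. The gene with the lowest p was Dbp, lower in db/db, and Clock was higher in db/db, the direction opposite to that in STZ-HFD. The median log2 fold change was -0.18 for the 10 and -0.04 for all tested genes.

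Dbp, the output factor of the D-box, lies on the plus strand of chromosome 7 (45705088 to 45710203). It was at 14.9, 7.01 and 7.87 CPM in db/+ replicates 1 to 3 and at 4.39, 4.22 and 5.23 CPM in db/db replicates 1 to 3. No library overlapped, with means of 9.91 ± 4.30 and 4.61 ± 0.542 CPM (SD, n = 3 each). The log2 fold change was -1.003 (SE 0.30, unadjusted p = 0.00425, adjusted p = 0.0854 by limma), and -0.67 (adjusted p = 0.236) without db/+ replicate 1, its highest library. With the muscle covariate it was -0.87 (adjusted p = 0.242). Dbp shares 539 bases, 18.0% of its exons, with Sphk2 on the opposite strand. Sphk2 differed by -0.52 in the same contrast (adjusted p = 0.263).

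Clock was at 54.0, 49.5 and 48.1 CPM in db/+ replicates 1 to 3 and at 76.4, 60.8 and 60.6 CPM in db/db replicates 1 to 3. All db/db libraries were above all db/+ libraries, with a log2 fold change of 0.37 (SE 0.19, adjusted p = 0.265 by limma) that did not pass. Arntl was at 7.46 to 9.29 CPM in db/db and 8.23 to 12.7 CPM in db/+ (log2 fold change -0.27, SE 0.25, adjusted p = 0.574), and Npas2 at 6.47 to 9.41 and 5.27 to 10.4 CPM (0.14, SE 0.37, adjusted p = 0.871). Neither Arntl nor Npas2 separated the groups. With the muscle covariate the log2 fold change was -0.75 for Arntl (adjusted p = 0.192), -0.69 for Npas2 (adjusted p = 0.419) and 0.54 for Clock (adjusted p = 0.210).

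Among the repressors, Cry1 was at 6.14, 6.12 and 9.84 CPM in db/db and 6.42, 4.83 and 3.62 CPM in db/+, with a log2 fold change of 0.57 (SE 0.27, adjusted p = 0.238). Per1 was at 73.7, 122 and 117 CPM in db/db and 135, 126 and 174 CPM in db/+, without overlap, at -0.47 (SE 0.27, adjusted p = 0.338). Per2 (-0.09, adjusted p = 0.858) and Per3 (-0.41, adjusted p = 0.393) overlapped between the groups. Nr1d2 was at 40.7 to 47.9 CPM in db/db and 36.2 to 39.1 CPM in db/+ (0.26, adjusted p = 0.547), again without overlap, and Nr1d1 overlapped (-0.42, adjusted p = 0.477). In all, 4 of the 10 clock genes did not overlap (Clock and Nr1d2 higher, Per1 and Dbp lower), while 25.8% of all tested genes did not (14.1% higher and 11.7% lower), and a share of this size is no result about the clock genes.

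Several db/db values of the clock genes lay near a trend of all genes with the GC content of their transcripts. The GC content of a gene was taken from its longest annotated transcript. Across 16899 genes, which are not independent replicates, log2 fold change and this GC content had a Spearman's rho of -0.43 in the db/db model and -0.08 in the STZ-HFD model. Clock (40.9% GC) and Nr1d2 (41.8%), both higher in db/db, were the clock genes with the least GC, and Dbp (61.6%) and Per1 (59.4%), both lower, were those with the most. With each library's GC trend removed, the db/db log2 fold change was 0.09 for Clock, -0.02 for Nr1d2, 0.03 for Per1, -0.05 for Nr1d1 and -0.49 for Dbp (adjusted p from 0.400 to 0.982), while that of Cry1 was 0.70 (adjusted p = 0.236). The same step gave Arntl -0.35 (from -0.27), Npas2 0.32 (from 0.14), Per2 0.19 (from -0.09) and Per3 -0.24 (from -0.41). Their adjusted p ran from 0.566 to 0.748 by limma. In the STZ-HFD model the same step left Npas2 at -1.76 (adjusted p = 0.0339) and Clock at -0.62 (adjusted p = 0.0764).

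**Figure D3:**
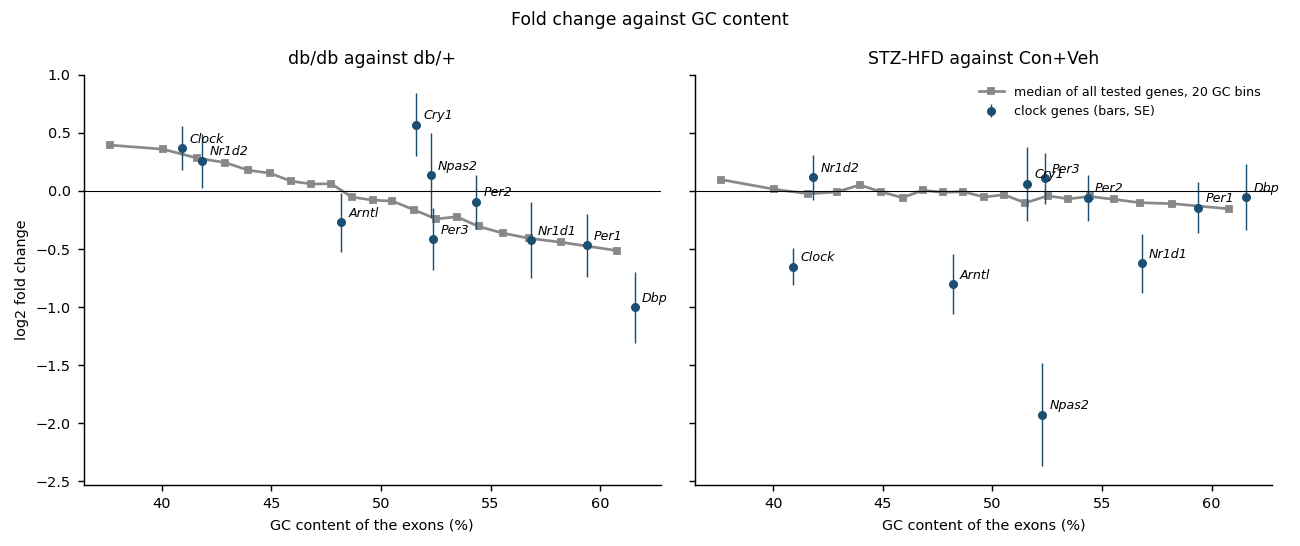
Log2 fold change (vertical axis) against GC content in % (horizontal axis, from the exons of the longest annotated transcript of each gene) in each model, for the medians of 20 bins of all tested genes (grey squares) and for the clock genes (points, bars are SE). In db/db Clock (0.37), Nr1d2, Nr1d1 and Per1 lie on the grey line. Cry1 (0.57), Npas2 and Per2 lie above it there, and Dbp (-1.003), Arntl and Per3 below it. In STZ-HFD, where the line is near flat, Npas2, Arntl, Clock and Nr1d1 lie below it.

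The difference between the 2 models was tested as a contrast of its own, the STZ-HFD log2 fold change less the db/db one. Clock was the 1 of 10 clock genes called, against 1.77% of all tested genes (0.816% in the negative direction), at -1.02 (SE 0.24, adjusted p = 0.0428 by limma). DESeq2 also called it (-1.09, adjusted p = 0.0184) and edgeR did not (-1.09, adjusted p = 0.203). Leaving out each library in turn kept the value between -1.11 and -0.91, and the adjusted p was 0.05 or more without any one of 11 of the 14 libraries, all except Con+Veh replicates 1 and 2 and STZ-HFD replicate 1. With the GC trend removed the difference was -0.71 (adjusted p = 0.235). Npas2 differed by -2.06 (SE 0.57, adjusted p = 0.0721) and Dbp by 0.95 (SE 0.42, adjusted p = 0.246), and neither passed. With the muscle covariate the difference was -0.36 for Npas2 (SE 0.80, adjusted p = 0.860) and -1.41 for Clock (adjusted p = 0.0895). In the reported fit Clock, Npas2 and Dbp were the 3 of 10 with an unadjusted p under 0.05, 1 positive and 2 negative. The share of all genes was 17.3% (8.35% positive and 8.94% negative).

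**Figure D4:**
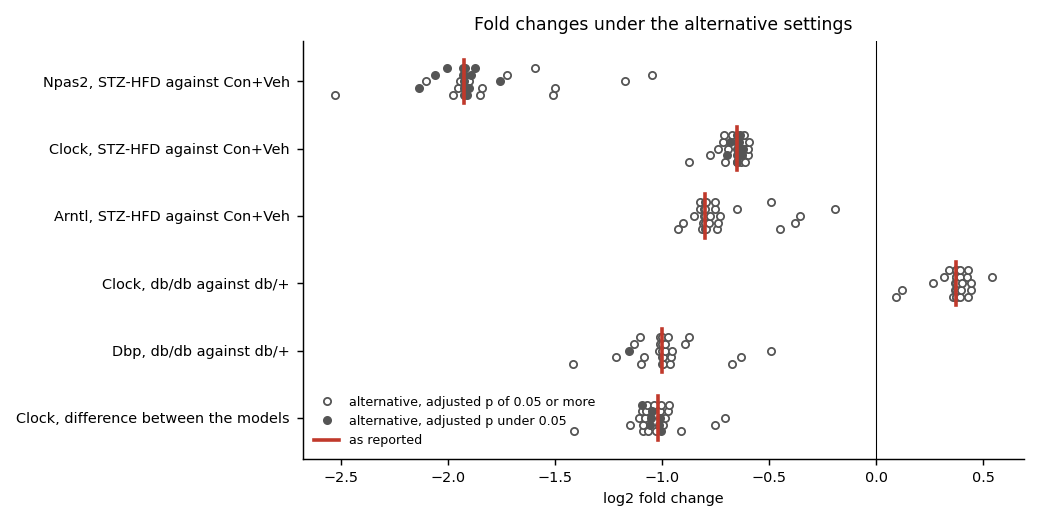
Log2 fold change (horizontal axis) of Npas2, Clock, Arntl and Dbp in the named contrasts, as reported (red bars) and under each alternative setting or with each library left out (circles, filled where the adjusted p was under 0.05). Directions held throughout, Npas2 in STZ-HFD ran from -2.53 to -1.05, and Clock in db/db came as low as 0.09.

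Ratios within a library do not depend on the scaling between libraries, and were taken for pairs that peak at opposite times. A trend with GC content can still enter them, as Arntl has 48.2% GC, Nr1d1 56.8% and Dbp 61.6%. It was not removed from the ratios. Nr1d1 counts were 36.6 to 46.4 times those of Arntl in db/+ and 23.9 to 53.0 times in db/db, with the db/+ range lying inside that of db/db. They were 40.5, 41.1, 35.8 and 25.3 times in Con+Veh replicates 1 to 4 and 8.21, 34.7, 43.7 and 47.0 times in STZ-HFD replicates 1 to 4. STZ-HFD replicate 1 alone lay below the rest, and from transcript totals its ratio was 78.4, within the range of 37.0 to 81.7 for Con+Veh. That value rests on 12 estimated counts of Arntl, 3.52% of its gene count there, so it cannot place this library. The counts of Dbp relative to those of Arntl were 0.620 to 1.55 in db/+ and 0.454 to 0.701 in db/db, and 0.623 to 1.64 in Con+Veh and 0.446 to 1.79 in STZ-HFD. Both pairs of groups overlapped on each ratio.

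**Figure D5:**
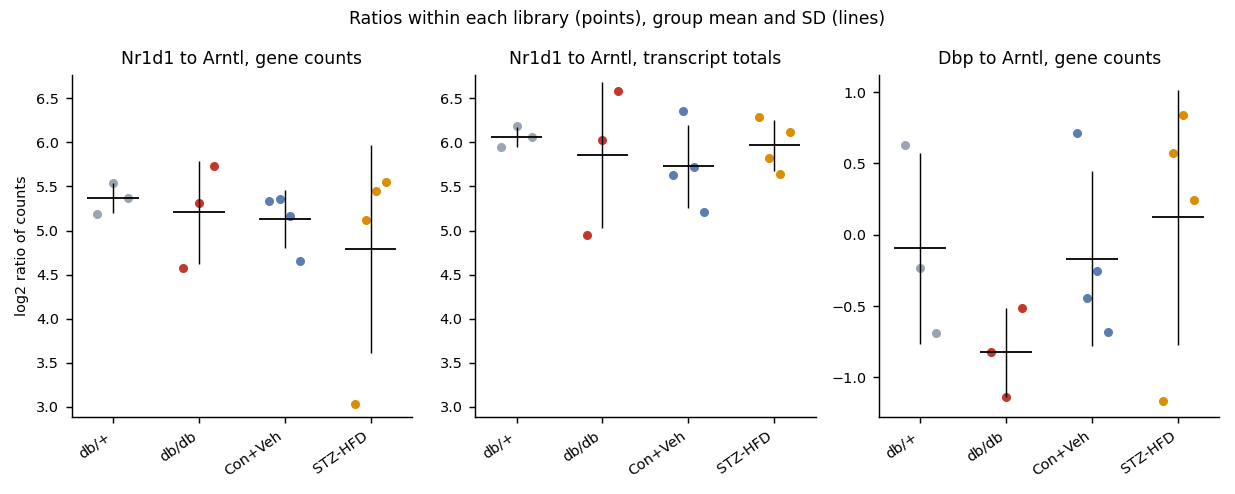
Log2 ratio of counts (vertical axes) of Nr1d1 to Arntl from gene counts and from transcript totals, and of Dbp to Arntl from gene counts, per library (points) with group mean and SD (lines). From gene counts 1 STZ-HFD library lies apart at a ratio of 8.21. From transcript totals it does not, but its value there rests on 12 estimated counts of Arntl.

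The pairs of clock genes whose deviations within groups had the largest r in size are given first, chosen after their values were seen. As a description over the 14 libraries, on deviations of log2 CPM from the group means and with no p, Arntl and Npas2 had a Pearson's r of 0.78 (Spearman's rho 0.63), and 0.62 without the 2 libraries farthest from the median of Arntl. Arntl and Nr1d2, the receptor that represses it, had an r of -0.80 (rho -0.73), and -0.57 without those 2 libraries. Per1 and Nr1d1 had an r of 0.78 (rho 0.70), which was 0.77 without the 2 farthest libraries. Per2 had an r of 0.79 with Dbp (rho 0.78) and of 0.80 with Per3 (rho 0.60), and these were 0.73 and 0.48 without the 2 farthest. Per2 and Nr1d1 had an r of 0.76 (rho 0.68), and 0.62 without the 2 farthest. By contrast, Arntl and Nr1d1, the other receptor that represses it, had an r of -0.23 (rho -0.05), which was 0.24 without the 2 libraries farthest in Arntl. Arntl and Dbp, which peak at opposite times in a working clock, had an r of -0.03 (rho -0.11), and 0.27 without those 2. The libraries share depth and tissue content with their RNA, so these values are not those of independent measures.

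The genes most like Arntl over the 14 libraries outside the 10 were Pou5f2 (r = 0.88), Gm16244 (0.85), Slc4a11 (0.85), Magi2 (0.84) and Gm26510 (0.83). Their r on deviations from the group means was 0.95, 0.86, 0.85, 0.88 and 0.88 in the same order, and only Magi2 exceeded 3 CPM on average (17.5 CPM). Among the clock genes Npas2 came closest to Arntl, at rank 59 of 16914 genes, and at rank 232 on deviations from the group means. The genes most like Dbp were Gm8373 (r = 0.96), Spindoc (0.95), Gm5898 (0.94), Rnf40 (0.94) and Prcc (0.94), none of them a known clock gene, and the closest clock gene was Per3 at rank 2617. On deviations from the group means the closest clock gene to Dbp was Per2 (r = 0.79, rank 435), and Per3 was at rank 2411.

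Other genes of the clock were examined as a list of 18, which includes the PAR-domain relatives of Dbp, the repressors Bhlhe40, Bhlhe41 and Ciart, and the kinases and ubiquitin ligases that set the life of PER and CRY proteins. None of the 18 was called in either model by limma, edgeR or DESeq2. In db/db 4 of 18 had an unadjusted p under 0.05. Among them Nfil3, the repressor at D-box elements, was at 0.72 on the log2 scale (adjusted p = 0.121), Bhlhe40, which represses at E-boxes, at -0.73 (adjusted p = 0.0870) and Ciart at -0.67 (adjusted p = 0.231). In STZ-HFD 2 of 18 did, Bhlhe41 at -0.52 (adjusted p = 0.188) and the kinase gene Csnk1e at -0.47 (adjusted p = 0.191). The shares of all tested genes with such a p were 21.1% and 17.9%.

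Of 10 clock output genes, 1 was called, and it was in db/db, where 1.66% of all tested genes were called: Tspan4, which encodes a tetraspanin, was lower by limma (log2 fold change -1.31, adjusted p = 0.0366). Nampt, the enzyme that makes the NAD precursor, was at 0.60 (adjusted p = 0.225). In STZ-HFD none of the 10 was called by limma, and the 2 with an unadjusted p under 0.05, against 17.9% of all tested genes, were Usp2, a ubiquitin protease (0.99, adjusted p = 0.0685), and Noct, an mRNA deadenylase relative (0.64, adjusted p = 0.275). Signals that reset the clock were read from 6 glucocorticoid-responsive genes and 9 immediate early genes, and none was called in either model by limma. An unadjusted p under 0.05 was found for 1 of 6 and 0 of 9 in db/db and for 2 of 6 and 3 of 9 in STZ-HFD, where the shares of all tested genes were 21.1% and 17.9%. Of the first list Fkbp5 was at 0.70 in db/db (adjusted p = 0.202), and Zbtb16 was at 0.70 (adjusted p = 0.102) and Dusp1 at -0.53 (adjusted p = 0.234) in STZ-HFD. Of the second, Egr1 (-0.81, adjusted p = 0.0936), Fos (-1.09, adjusted p = 0.154) and Dusp1, which is on both lists, were lower in STZ-HFD with an unadjusted p under 0.05, and in db/db none of the 9 had such a p.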

How the data were processed

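RNA was taken from pooled discs of 14 mice, 1 library per mouse, with low-input RNA amplified to cDNA before library preparation. The authors aligned reads to GRCm38 (Ensembl release 101) with STAR and deposited raw gene counts made with featureCounts and estimated counts per transcript made with Salmon. The strand setting is not given in the sources used here.

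From the gene counts, 287 repeated lines with identical counts were dropped, leaving 55487 genes. Genes above 1 CPM in at least 3 libraries (16915) were scaled by TMM (edgeR 4.0.16) and fitted with voomWithQualityWeights in limma 3.58.1 (R 4.3.3), with 1 mean per group and all 14 libraries in 1 fit. A call needed a Benjamini-Hochberg adjusted p under 0.05 over all tested genes and a log2 fold change of 1 or more in size. Alternatives used edgeR's quasi-likelihood test, DESeq2 1.42.0, other filters and scalings, no weights, each model alone, removal of the GC trend in 20 bins (gene GC from GENCODE M21), tissue scores as covariates, transcript totals rounded to whole numbers, and each library left out. The limma, edgeR and DESeq2 fits were also run on simulated counts with known changes, and the outcome is not reported here. Same-numbered replicates did not pair (mean r of deviations -0.09 and -0.11), so the reported fit has no block, and a block was an alternative.

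The 10 members and the lists were chosen with earlier results of these data known. Named genes were the 10 members, list genes with an unadjusted p under 0.05 in either model (otherwise the 2 most abundant), and the 5 genes most like Arntl and Dbp by Pearson's r of log2 CPM (prior count 2). One list gene that met this rule is not reported here. CPM values use TMM-scaled totals. On that scale 3 counts correspond to 0.0431 to 0.163 CPM, which covers counting error only. Transcript totals of Per1, Per3, Cry1 and Dbp were not used here, because only part of their transcripts was held.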

Additional observations from a re-analysis of the deposited data

Results flagged for a closer look

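Clock was flagged because its fold changes in the 2 models differed by a test of the difference itself, at -1.02 on the log2 scale (adjusted p = 0.0428 by limma). All 3 db/db libraries lay above all 3 db/+ libraries, and all 4 STZ-HFD libraries lay below all 4 Con+Veh libraries. The db/db value alone (0.37, adjusted p = 0.265) did not pass, and it fell to 0.09 with the GC trend of each library removed, which left a difference of -0.71 (adjusted p = 0.235). No clock gene had a single library apart from its group of 4 by Dixon's test at 95% in the 20 groups checked.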

How the results depend on the processing

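The STZ-HFD call of Npas2 and the called difference of Clock were not stable, and the replicates of 3 and 4 and the low counts of Npas2 (41 to 864) and Arntl (162 to 816) limit the precision. The pass of Clock in STZ-HFD by the adjusted p was not stable either, and held in 14 of 30 alternatives. It ended without quality weights (adjusted p = 0.183 by limma), with filterByExpr (0.0848) or with each model fitted alone (0.0816). The count of clock genes called in STZ-HFD, 1 as reported, was 0 with edgeR, DESeq2, no quality weights, every gene kept, a fit of each model alone, the replicate block with or without the GC trend removed, the muscle or adipocyte covariate, or without Con+Veh replicate 2 and STZ-HFD replicate 4, whose library names share an ending. It was 2 with no fold minimum, which adds Clock, and 0 to 1 over single libraries left out. The count for the difference, 1 as reported, was 0 with edgeR, no quality weights, filterByExpr, the replicate block with or without GC removal, GC removal alone, either covariate or without that pair of libraries, and 0 to 1 over libraries left out. In db/db the count was 1 in place of 0 with the replicate block, through Dbp (-1.15, adjusted p = 0.0316), and 0 otherwise. The block gave Npas2 in STZ-HFD an adjusted p of 0.102 and Clock 0.201. Same-numbered samples share only a number, with correlations of -0.28 to 0.19 in db/db and -0.26 to -0.04 in STZ-HFD. The count of 18 other clock genes was 0 in both models under every alternative fitted. Counts from transcript totals were not run, since 4 clock genes were held only in part.

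The mean log2 ratio of Nr1d1 to Arntl from gene counts was 5.36 in db/+, 5.21 in db/db, 5.13 in Con+Veh and 4.79 in STZ-HFD, and from transcript totals it was 6.06, 5.85, 5.73 and 5.97 in that order. The last mean includes STZ-HFD replicate 1, with 12 estimated counts of Arntl. Of the 5 genes most like Arntl, and of the 5 most like Dbp, 1 each was among the 5 most alike on deviations from the group means.

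Signs turned only in contrasts where the gene was not called (Npas2, called in STZ-HFD, turned in db/db), and the cause was not tested. With edgeR, DESeq2 and no quality weights, the STZ-HFD log2 fold change was -0.22, -0.21 and -0.25 for Per3, -0.31, -0.30 and -0.31 for Cry1, and -0.26, -0.25 and -0.31 for Nr1d2. The muscle covariate gave -0.69 for Npas2 in db/db and 0.14, -0.25 and -0.20 for Per1, Cry1 and Nr1d2 in STZ-HFD, and the adipocyte covariate -0.0015 for Per3. GC removal gave 0.026, 0.19 and -0.018 for Per1, Per2 and Nr1d2 in db/db and 0.098 for Dbp in STZ-HFD, and with the replicate block as well 0.16 and -0.0013 for Per2 and Nr1d2 in db/db and 0.089 for Dbp in STZ-HFD. With every gene kept Per2 and Dbp were at 0.0044 and 0.020 in STZ-HFD, transcript totals put Per2 at 0.063, and without the pair of libraries Nr1d2 and Dbp were at -0.074 and 0.00082. Over single libraries left out, the ranges that crossed 0 were -0.16 to 0.36 (Npas2) and -0.19 to 0.0039 (Per2) in db/db, and in STZ-HFD -0.46 to 0.00074 (Per1), -0.18 to 0.022 (Per2), -0.051 to 0.22 (Per3), -0.36 to 0.16 (Cry1), -0.081 to 0.22 (Nr1d2) and -0.18 to 0.077 (Dbp).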
